A study of Homo sapiens with 6 samples.

Results

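The autophagy machinery genes examined here are 34 genes that act at successive steps of macroautophagy, from the initiation kinase to the cargo receptors, together with a pair of transcription factors that control lysosomal and autophagy genes. They were chosen by name, and a gene was measured through the probe sets annotated to its symbol alone. This gave 92 probe sets for the 34 genes, out of 41091 probe sets with 1 symbol that represent 19775 genes. HuCCT1 and KKU-100, a pair of bile duct carcinoma lines, were treated with solvent, a low dose or a high dose of regorafenib, an oral inhibitor of several receptor and RAF kinases. RNA from each of the 6 conditions was hybridized to 1 Affymetrix array. The labels give the doses as 1 μM and 10 μM, the text of the study gives lower ones, and the arrays are therefore called low and high dose. By that text the exposure lasted 6 h. All 6 cultures share, by the labels, stable transduction and puromycin selection, with no construct named, and each line is a single cultured line that stands for 1 tumor.

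The signal intensities are linear and were compared as log2 fold changes (1 is a 2-fold rise, -1 a 2-fold fall). Array medians ranged from 28.8 to 29.3. The brightest of a gene's probe sets, by mean log2 signal over the 6 arrays, stands for the gene, and signals are not compared between genes. A gene entered a comparison within a line if its average log2 level there was at least the median of all probe sets, which is a signal of 29.1 for HuCCT1 and 28.9 for KKU-100. All 34 genes passed in KKU-100 and 33 in HuCCT1, where ULK2 was below this level. A difference is called past 1.5-fold, the cutoff of the study, and with 1 array per condition it has no replicate check and no p-value. The low and the high dose of a line are set against the same solvent array. Bulk RNA does not separate fewer cells with a transcript from less transcript per cell. Of the listed biliary epithelial markers, the keratins KRT7, KRT8 and KRT18 were well above the filter in both lines. In contrast, KRT19 and EPCAM stood at signals of 8.62 to 11.1 in KKU-100 and at 6432 to 9321 in HuCCT1. The KKU-100 arrays thus lack these 2 defining markers of biliary epithelium. The fibroblast collagen COL3A1 read 538 to 779 in KKU-100 and 6.52 to 8.63 in HuCCT1. It is 1 of 5 fibroblast markers, whose summed signals were 767 to 1048 in KKU-100 and 247 to 320 in HuCCT1. COL3A1 alone made up the larger part of the KKU-100 sums, so its difference does not stand for the list.

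Macroautophagy encloses cytoplasm in a double membrane, the autophagosome, which then fuses with the lysosome. The ULK1 kinase complex, which the nutrient-sensing kinase mTORC1 restrains, starts the process, and the class III phosphatidylinositol 3-kinase complex marks the site with PI3P, to which the WIPI proteins bind. Conjugation enzymes then attach ATG8 family proteins such as LC3B and GABARAP to the growing membrane, and receptors such as p62, the product of SQSTM1, tie cargo to them. ATG8 proteins and p62 are themselves degraded with the cargo, and RNA levels do not measure autophagic flux.

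For each line, the 2 members with the largest changes against solvent among those with a promoter entry are shown. These are MAP1LC3B and GABARAPL1 for HuCCT1, and TFEB and ULK1 for KKU-100. The 250 bases before a transcription start site are given. TFEB has 3 start sites among the entries, and the window of the outermost of them, which lies within the annotated gene, is printed. The sequences are from RefSeq on GRCh38.p14, written 5′ to 3′ on the strand of the gene, and capitals mark the only motif match found in these windows, a TGACNNNGC (the antioxidant response element core) in MAP1LC3B.
GABARAPL1, chr12:10212627-10212876, + strand: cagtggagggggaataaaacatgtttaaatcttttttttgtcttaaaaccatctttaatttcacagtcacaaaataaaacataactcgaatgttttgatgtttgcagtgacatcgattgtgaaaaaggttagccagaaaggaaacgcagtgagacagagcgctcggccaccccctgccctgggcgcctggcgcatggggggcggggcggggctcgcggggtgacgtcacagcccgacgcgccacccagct
MAP1LC3B, chr16:87392086-87392335, + strand: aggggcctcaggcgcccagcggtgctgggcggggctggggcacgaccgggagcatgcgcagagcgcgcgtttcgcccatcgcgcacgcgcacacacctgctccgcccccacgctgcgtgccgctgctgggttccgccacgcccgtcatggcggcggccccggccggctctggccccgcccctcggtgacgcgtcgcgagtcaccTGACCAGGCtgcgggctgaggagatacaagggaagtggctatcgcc
ULK1, chr12:131894372-131894621, + strand: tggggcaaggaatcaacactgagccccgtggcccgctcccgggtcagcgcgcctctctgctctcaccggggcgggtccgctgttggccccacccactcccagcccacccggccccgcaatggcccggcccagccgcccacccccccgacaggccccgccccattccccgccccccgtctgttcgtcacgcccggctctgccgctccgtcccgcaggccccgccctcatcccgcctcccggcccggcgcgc
TFEB, chr6:41735609-41735858, - strand: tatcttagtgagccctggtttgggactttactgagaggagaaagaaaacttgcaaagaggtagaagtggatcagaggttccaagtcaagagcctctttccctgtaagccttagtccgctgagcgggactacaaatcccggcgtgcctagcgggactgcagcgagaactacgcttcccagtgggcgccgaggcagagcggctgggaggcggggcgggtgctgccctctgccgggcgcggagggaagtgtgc

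Over the 42 windows of the 32 members with an entry, TGACNNNGC was found, on either strand, in 2, those of ATG101 and MAP1LC3B, which is 4.76% of the windows against 10.9% of the 35116 windows of all genes. The E-box CACGTG was also in 2 windows, those of ATG3 and ATG14, against 6.34% of all windows. Neither TCACGTGA (the CLEAR element bound by TFEB, which contains the E-box), TGATGNAA (the amino acid response element of ATF4) nor GTAAACA (a forkhead site) occurred in a member window, with shares of 0.854%, 3.14% and 2.98% over all windows. RB1CC1 and UVRAG have no entry in the table used.

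In HuCCT1 cells, GABARAPL1 was higher at the low dose, GABARAPL1, MAP1LC3B, SQSTM1, ATG12 and UVRAG were higher at the high dose, and the members lower were ATG16L1 at the low and PIK3C3 at the high dose. At the low dose 1 of the 33 measured members was higher, against 3.68% of all 12789 genes, and 1 was lower, against 3.32%. At the high dose 5 were higher, against 8.23% of all genes, and 1 was lower, against 6.44%. The member median was -0.07 (low dose) and 0.06 (high dose), beside 0.02 over all genes for either. With quantile normalization the high-dose counts were 5 higher and 0 lower. With 33 genes in the list, these counts lie near the share of all genes on the same arrays or within a few genes of it.

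GABARAPL1, an ATG8 family member, had HuCCT1 signals of 224 with solvent, 448 with the low dose and 450.4 with the high dose. The treated arrays thus stood at log2 fold changes of 1.00 and 1.01, with no further step between the doses. In KKU-100 the same probe set read 234 with solvent, 150.03 with the low dose and 186 with the high dose. Its solvent level was therefore alike in both lines, but the treated arrays lay on opposite sides of it, KKU-100 with log2 fold changes of -0.64 and -0.33, of which the first is past the cutoff. The second probe set of GABARAPL1 gave 1.38 and 1.31 in HuCCT1, and -0.78 for the KKU-100 low dose.

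MAP1LC3B encodes LC3B, the ATG8 protein commonly used to follow autophagosomes. Its HuCCT1 signals were 395 with solvent, 346 with the low dose and 915 with the high dose, so the high-dose array alone stood out, at a log2 fold change of 1.21 against solvent and 1.40 against the low dose. In KKU-100 the signals were 3433, 1797 and 2742, and the low-dose array was lower, at a log2 fold change of -0.93, with -0.32 at the high dose. Its second probe set read 0.58, just inside the cutoff, at the HuCCT1 high dose, and -0.94 and -0.66 in KKU-100, where the high dose is then past the cutoff too. The other ATG8 genes moved little. GABARAP had HuCCT1 signals of 1907, 2339.7 and 2049 and KKU-100 signals of 3007, 3199 and 3091. GABARAPL2 read 1769.6, 1845 and 1707 in HuCCT1, and in KKU-100 3495, 3182 and 3318. All 4 log2 fold changes of each stayed inside the cutoff, with GABARAP between 0.04 and 0.29 and GABARAPL2 between -0.14 and 0.06.

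**Figure D1:**
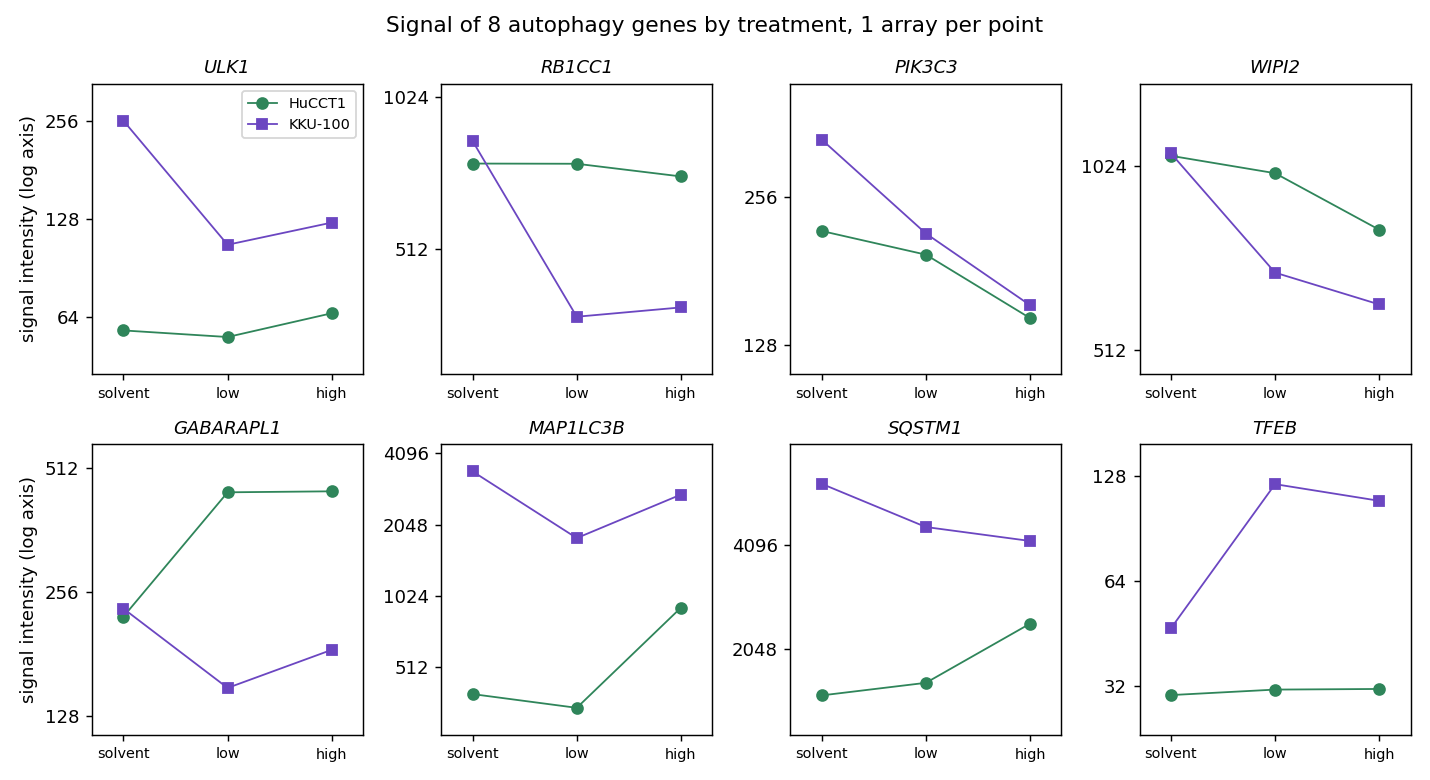
Signal intensity (log axis, range set per panel) of 8 autophagy genes on the solvent, low-dose and high-dose arrays of HuCCT1 (green circles) and KKU-100 (violet squares), with 1 array per point and lines joining the arrays of a line. GABARAPL1 starts at 224 and 234 with solvent and parts in opposite directions, whereas PIK3C3 is lowest at the high dose in both lines, at 145 and 154.

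The remaining HuCCT1 calls at the high dose fell on a receptor, a conjugation protein and the PI3-kinase complexes. SQSTM1, which encodes the cargo receptor p62, had HuCCT1 signals of 1505, 1636 and 2425 (log2 fold change 0.69 at the high dose). The KKU-100 signals were 6142, 4610.1 and 4202, differences of -0.41 and -0.55 that stay inside the cutoff. Its probe sets disagreed: the 3 others above the filter in HuCCT1 gave -0.02 to 0.33 at the high dose, and the brightest of those not marked as matching several transcripts gave -1.32 and -1.05 in KKU-100, past the cutoff. The SQSTM1 difference in HuCCT1 thus rests on the brightest probe set.

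ATG12, the ubiquitin-like protein conjugated to ATG5, had HuCCT1 signals of 1019.6, 947 and 1608, a log2 fold change of 0.66 at the high dose, and KKU-100 signals of 1503, 1150.3 and 1548. The other ATG12 probe sets above the filter in HuCCT1 ranged from 0.21 to 1.09 at the high dose, and the median signal over all of its probe sets gave 0.21, which ends the call. UVRAG, a partner of Beclin 1 in the endosomal form of the PI3-kinase complex, read 136, 158 and 227 in HuCCT1, a difference of 0.74 at the high dose, and 152, 107 and 180 in KKU-100. In both genes the high-dose array was the brightest of its line, and the low-dose array of KKU-100 lay below its solvent array by less than the cutoff. ATG16L1, the scaffold of the ATG12 and ATG5 conjugate, was the member called lower at the HuCCT1 low dose. It read 108, 70.7 and 90.0 in HuCCT1 (log2 fold change -0.60 at the low dose) and 83.3, 88.9 and 79.4 in KKU-100. Its other probe set was below the filter and gave 0.15. The median signal over both gave -0.225, so the call rests on 1 probe set.

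In KKU-100 cells, 4 of the 5 initiation genes were lower at the low dose, and ULK1 and RB1CC1 among them also at the high dose. At the low dose 9 of the 34 members were lower, against 7.32% of all 12694 genes, and 2 were higher, against 9.75%. At the high dose 4 were lower, against 4.86%, and 1 was higher, against 9.44%. The member median was -0.25 (low dose) and -0.15 (high dose), beside 0.06 over all genes for each, and 26 members lay below 0 with the low dose and 22 with the high dose. Of all 12694 genes, 5370 lay below 0 with the low dose and 5380 with the high dose. By role, the members lower at the low dose were, beside those of initiation, 2 of the 6 genes of the PI3-kinase complexes, 1 of the 5 genes of membrane supply and PI3P binding and 2 of the 4 ATG8 genes, and none of the 8 conjugation genes or 4 cargo receptors was called lower.

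**Figure D2:**
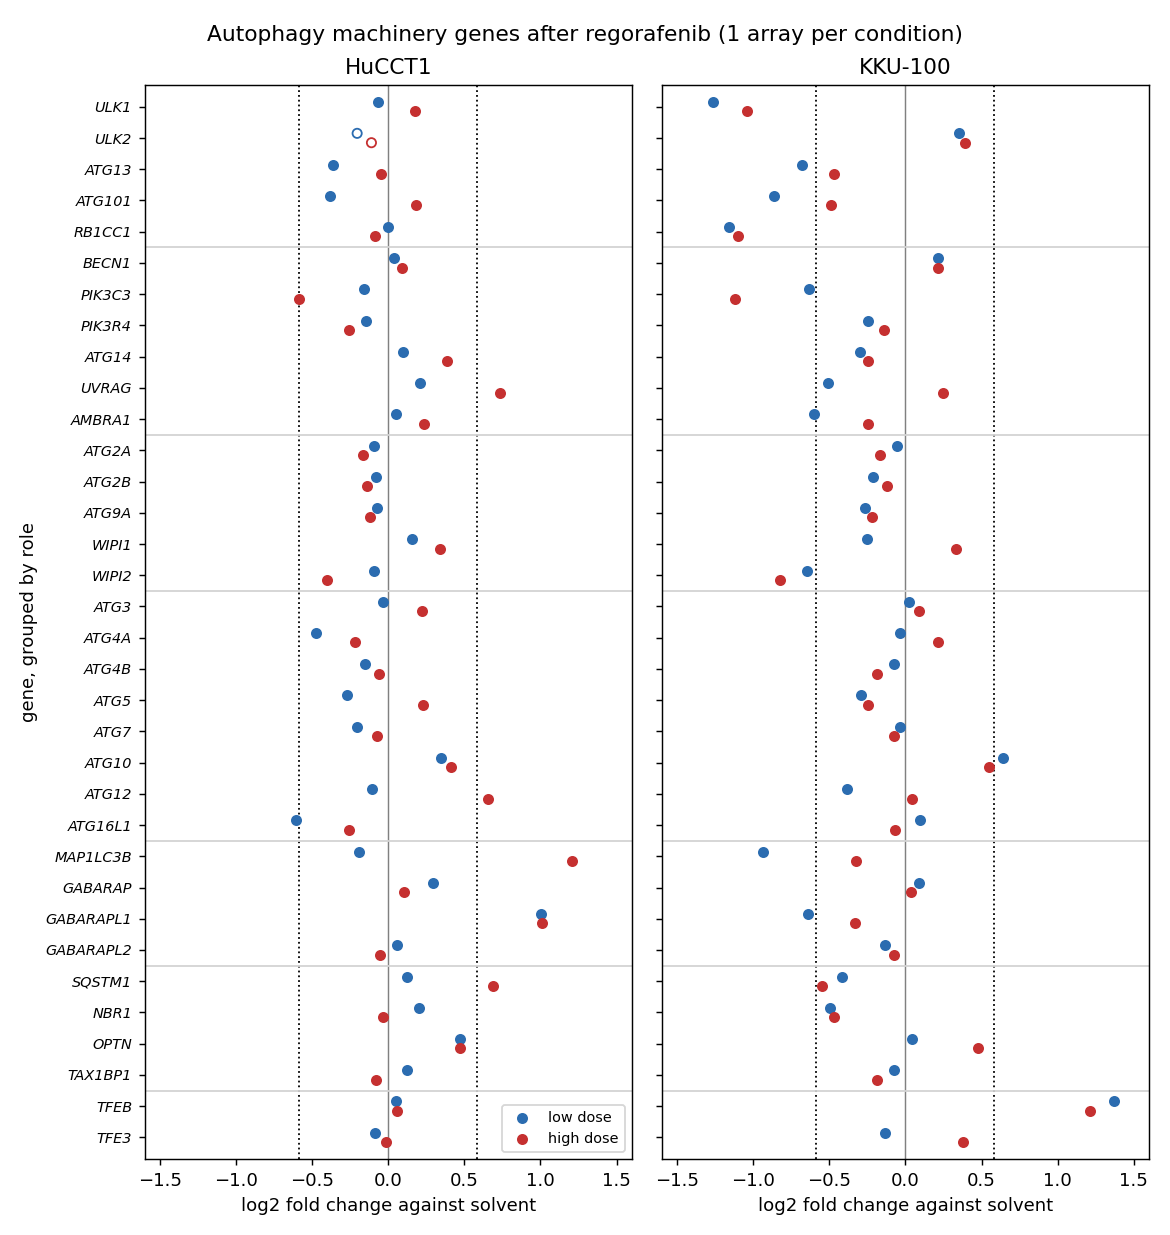
Log2 fold change against solvent (x axis) of each of the 34 genes (y axis, grouped by role) at the low (blue) and high (red) dose in HuCCT1 (left) and KKU-100 (right), 1 array per condition, with open circles for ULK2 below the level filter and dotted lines at 1.5-fold. In KKU-100 ULK1, ATG13, ATG101 and RB1CC1 lie left of the cutoff at the low dose, and TFEB lies at 1.37 and 1.21.

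ULK1, the kinase that starts autophagy, had KKU-100 signals of 256 with solvent, 106 with the low dose and 125 with the high dose, log2 fold changes of -1.27 and -1.04. Its HuCCT1 signals were 58.1, 55.4 and 65.6, so that all 3 lay below every KKU-100 array. ULK1 was measured by 1 probe set, as were ATG101 and UVRAG, so no other one checks the values of these genes. RB1CC1 encodes FIP200, the scaffold of the complex, and read 839, 376 and 392 in KKU-100, differences of -1.16 and -1.10. Its HuCCT1 signals of 757, 756 and 713 were close to the KKU-100 solvent level, and only the treated KKU-100 arrays lay apart. A second RB1CC1 probe set gave -0.39 and -0.47 in KKU-100, the same direction but inside the cutoff.

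The other initiation subunits were called at the low dose alone. ATG101, a stabilizing subunit, had KKU-100 signals of 1891, 1041 and 1347 (log2 fold changes -0.86 and -0.49), and HuCCT1 signals of 816, 627 and 926. ATG13, the adaptor subunit, read 367, 229 and 266 in KKU-100 (-0.68 and -0.47) and 317, 247 and 307 in HuCCT1 (-0.36 and -0.05). In both genes the low-dose array was the dimmest of its line, in HuCCT1 too, although there the difference stayed inside the cutoff. The low-dose call of ATG13 in KKU-100 rests on the brightest probe set, as the others above the filter gave -0.44 and -0.37 and the median signal gave -0.37. ULK2, the paralog of ULK1, read 66.0, 84.2 and 86.6 in KKU-100 on its brightest probe set, within the cutoff, and its other probe sets above the filter there disagreed, at -1.09, -0.68 and 0.06 for the low dose and -0.88, -0.33 and 0.17 for the high dose. No direction is therefore given for ULK2, and its HuCCT1 signals of 14.5 to 16.7 were below the level filter.

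PIK3C3 encodes VPS34, the catalytic subunit that makes PI3P, and was the member called lower in both lines. Its signals were 218, 195 and 145 in HuCCT1, where the high dose reached -0.59, barely past the cutoff, and 335, 216 and 154 in KKU-100, with log2 fold changes of -0.63 and -1.12. In each line the solvent array was the brightest and the high-dose array the dimmest. All 6 other probe sets of PIK3C3 were below the level filter, and the median signal over its 7 probe sets gave 0.06 at the HuCCT1 high dose and -0.04 and -0.17 in KKU-100, so the PIK3C3 difference rests on 1 probe set. AMBRA1, a Beclin 1 regulator, was called lower at the KKU-100 low dose only, with 254, 168 and 215 there (log2 fold changes -0.60 and -0.24) and 249.8, 259 and 294 in HuCCT1. Its other probe set above the filter gave -0.46, and the median signal over its probe sets -0.09, so the call rests on the brightest.

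WIPI2, the PI3P-binding protein that recruits the conjugation machinery, had KKU-100 signals of 1073, 684 and 607, log2 fold changes of -0.65 and -0.82. Its HuCCT1 signals were 1063, 995 and 804, the same order of the arrays, with -0.09 and -0.40 inside the cutoff. A further WIPI2 probe set, which stands for the gene when those matching several transcripts are left out, gave -0.53 and -0.99 in HuCCT1, so that the high dose is then past the cutoff, as it is with the median signal over the probe sets. The 2 other WIPI2 probe sets above the filter in KKU-100 gave -0.78 to -0.52 for the low dose, and -0.74 and -0.73 for the high dose. WIPI1, its relative, was not called against solvent in either line and read 239, 266 and 303 in HuCCT1, against 469.5, 394 and 590.5 in KKU-100.

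The members that were higher in KKU-100 were TFEB and ATG10. TFEB, the transcription factor that switches on lysosomal and autophagy genes when mTORC1 is inactive, had KKU-100 signals of 46.8, 121 and 109, log2 fold changes of 1.37 and 1.21. In HuCCT1 it read 30.1, 31.2 and 31.4, all near the filter signal of 29.1, so that a fall past the cutoff there could have taken the gene below the filter, uncalled. Its second probe set gave 0.67 and 0.18 in KKU-100. TFE3, a related factor, had KKU-100 signals of 933, 849 and 1209.8 and HuCCT1 signals of 666, 626 and 659, with no difference past the cutoff. ATG10, the enzyme that joins ATG12 to ATG5, read 152, 238 and 223 in KKU-100 (0.64 and 0.55) and 103, 131 and 137 in HuCCT1 (0.35 and 0.41), where both treated arrays were above solvent in each line.

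Altogether 15 of the 34 members were past the cutoff in at least 1 of the 4 comparisons of a dose with solvent. The matching share over all genes was not counted, so the 15 is a tally and not a result about the members. The other 19 stayed, on their brightest probe set, within -0.50 (NBR1, KKU-100 low dose) and 0.48 (OPTN, KKU-100 high dose) or, as ULK2 in HuCCT1, below the filter. These 19 include BECN1, which encodes the core subunit Beclin 1, and the enzymes ATG3, ATG4A, ATG4B, ATG5 and ATG7. Of the 19, 14 had no other probe set above the filter and past 1.5-fold, and 5 had one: ULK2 as above, NBR1 at -0.65 and -1.16 in KKU-100, OPTN at 0.77 and 0.84 in HuCCT1 and 0.70 at the KKU-100 high dose, ATG2B at -1.61 at the KKU-100 low dose and ATG5 at 0.65 at its high dose. The 15 members gave 24 calls, and 16 of these had at least 1 other probe set of the gene above the filter. In 15 of the 16 every other probe set went the same way, with SQSTM1 at the HuCCT1 high dose as the exception, and in 9 at least 1 other probe set was itself past 1.5-fold.

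**Figure D3:**
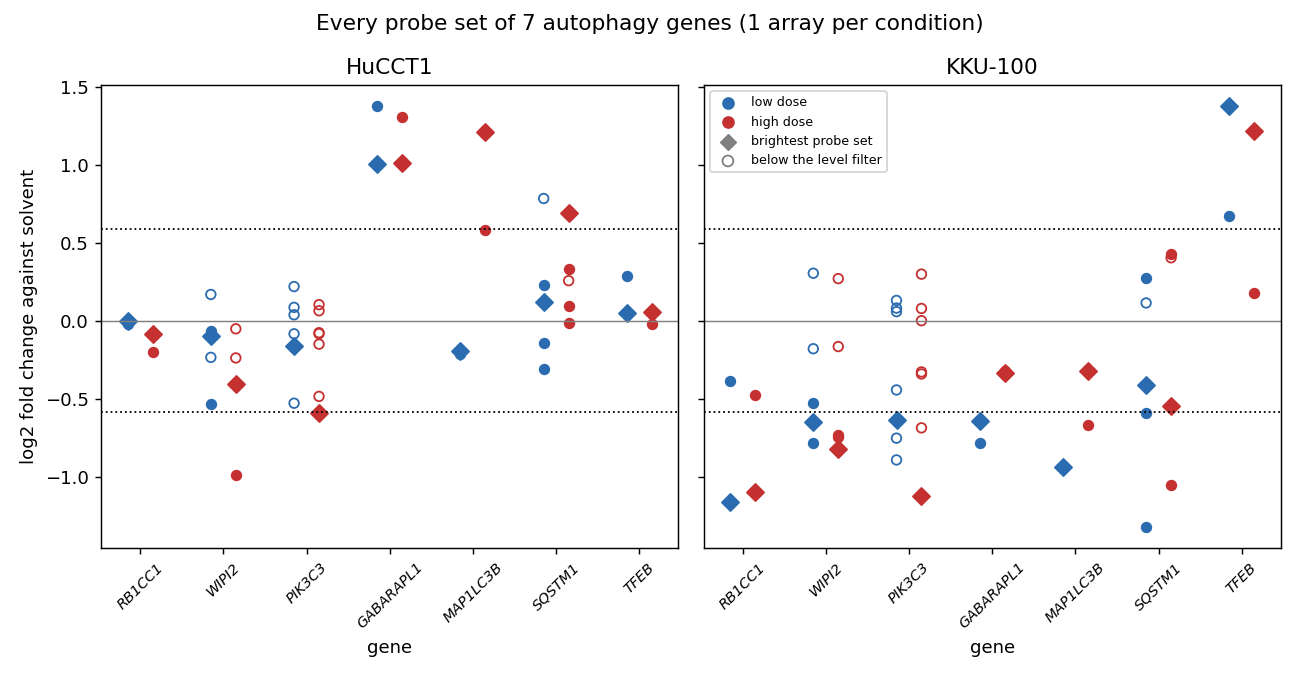
Log2 fold change against solvent (y axis) of every probe set of 7 autophagy genes at the low (blue) and high (red) dose in HuCCT1 (left) and KKU-100 (right), 1 array per condition, with diamonds for the brightest probe set, open circles for probe sets below the level filter and dotted lines at 1.5-fold. The probe sets of GABARAPL1 lie together, at 1.00 to 1.38 in HuCCT1, and those of SQSTM1 and PIK3C3 spread across 0.

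Between the doses, MAP1LC3B was higher at the high than at the low dose in each line on its brightest probe set, and its second one gave 0.79 in HuCCT1 and, inside the cutoff, 0.28 in KKU-100. In HuCCT1 2 of 33 members were higher at the high than at the low dose, against 6.57% of all genes, and 0 were lower, against 4.64%. These were MAP1LC3B at 1.40 and ATG12 at 0.76. In KKU-100 3 of 34 were higher, against 4.53%, and 0 were lower, against 1.74%: UVRAG at 0.76, MAP1LC3B at 0.61 and WIPI1 at 0.59, the last with a second probe set at 0.47. The member median of the difference was 0.07 in HuCCT1 and 0.06 in KKU-100, beside -0.01 over all genes in each.

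Shared changes of the lines were tested in limma on all 6 arrays, with the line as a block, 2 residual degrees of freedom and Benjamini-Hochberg adjustment over 12833 genes. No member and no other gene passed an adjusted p of 0.05 for either dose or between the doses. At an unadjusted p under 0.05 the low dose had 1 member higher, ATG10 at 0.50, against 6.14% of all genes, and 2 lower, ATG101 at -0.62 and ATG13 at -0.52, against 5.07%. The high dose had 2 higher, ATG10 at 0.48 and OPTN, a cargo receptor, at 0.48, against 10% of all genes, and 2 lower, PIK3C3 and WIPI2, against 4.9%. The smallest adjusted p of a member at the high dose in limma was that of PIK3C3, at -0.85 on the log2 scale (standard error 0.20, adjusted p 0.175). WIPI2 followed at -0.61 with a standard error of 0.17 and a limma adjusted p of 0.225. Between the doses 3 members were higher at an unadjusted p under 0.05, against 7.11% of all genes, and 0 lower, against 3.28%. These were ATG12 at 0.60, UVRAG at 0.64 and MAP1LC3B at 1.01, with a limma adjusted p of 0.41 as the smallest.

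The methods' t-test, run as a paired test over the lines, called 0 members after adjustment. At an unadjusted p under 0.05 it had 0 members higher at the low dose, against 3.5% of all genes, and 1 lower (ATG5), against 2.3%. The high dose had 2 higher (OPTN and WIPI1), against 3.75%, and 3 lower (ATG2A, ATG2B and ATG7), against 2.36%. Each line gives this test a single difference, so close values of any size reach a small p. In HuCCT1 and KKU-100 OPTN stood at 0.47 and 0.48, and WIPI1 at 0.34 and 0.33. ATG2A stood at -0.17 in each, ATG2B at -0.14 and -0.12, and ATG7 at -0.08 in each. All lie inside the cutoff, and the other ATG2B probe sets above the filter gave 0.41 and 0.14 in HuCCT1. The limma count depended on the solvent arrays. With either of them left out, the other was fitted exactly, and the p-values hold no spread between solvent arrays. The effects then lie near the single-array values of 1 line. TFEB at the low dose had 1.33 beside 1.37 in KKU-100, and GABARAPL1 at the high dose 1.09 beside 1.01 in HuCCT1. The calls of these fits therefore do not test a change shared by the lines. Without the HuCCT1 solvent array, when the solvent level comes from KKU-100 alone, limma called 1 member higher (TFEB), against 5.18% of all genes, and 5 lower (ATG101, MAP1LC3B, RB1CC1, ULK1 and WIPI2), against 4.79%, with the low dose. The high dose then had 1 higher (TFEB), against 3.04%, and 4 lower (PIK3C3, RB1CC1, ULK1 and WIPI2), against 1.86%. Without the KKU-100 solvent array it called 1 member higher at the high dose, GABARAPL1, by 1.09 on the log2 scale (limma adjusted p 0.0364), against 2.55% of all genes.

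Whether the lines responded differently was tested as the interaction of line and treatment in limma, with the doses of a line taken as repeats of treatment. The solvent array of each line is then fitted exactly. The standard errors and p-values below therefore hold the spread between the doses of a line and no spread between solvent arrays. No member passed an adjusted p of 0.05, and no gene did. At an unadjusted p under 0.05 there were 2 members with a higher response in KKU-100, against 5.21% of all genes, and 3 with a lower one, against 2.98%. TFEB had a response difference, KKU-100 minus HuCCT1, of 1.24 (standard error 0.23), and GABARAPL1, RB1CC1 and ULK1 had differences of -1.49 (0.30), -1.09 (0.23) and -1.21 (0.30), each with a limma adjusted p of 0.601. ULK2 was the other member counted as higher, and no value is given for it because its HuCCT1 signals were below the level filter. The opposite directions of GABARAPL1 and the KKU-100 falls of ULK1 and RB1CC1 are therefore values of single arrays that the test of the difference did not call.

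The lines differed in the level of many members, as they did for many genes of the array, and here the fit made calls. Over the 3 matched treatments limma called 12 members higher in KKU-100, against 27.9% of all genes, and 4 higher in HuCCT1, against 26.3%. On 13 members every KKU-100 array was above every HuCCT1 array (29.8% of all genes), on 6 every HuCCT1 array was above (29.2%), and on 15 the lines overlapped. The 3 arrays of a line are different treatments of 1 line, so a difference between the lines cannot be told apart from a difference between their cultures.

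MAP1LC3B was 5.13-fold higher in KKU-100, a log2 difference of 2.36 with a standard error of 0.28 and a limma adjusted p of 0.00138. The 12 calls include ULK2, which entered the fit through KKU-100 alone, so no fold is given for it. TFEB at 1.46, SQSTM1 at 1.44 and ULK1 at 1.34 were also higher in KKU-100, with limma adjusted p of 0.00707, 0.00366 and 0.00943. The ATG8 genes GABARAPL2 and GABARAP followed at 0.91 and 0.57, and ATG9A, the membrane protein of the seed vesicles, at 0.86. WIPI1 and ATG101 stood at 0.83 each, ATG10 at 0.71 and TFE3 at 0.60. All of these are averages over the treatments. Between the solvent arrays alone the log2 differences were 3.12 for MAP1LC3B, 0.63 for TFEB, 2.03 for SQSTM1 and 2.14 for ULK1. The average of TFEB thus leans on the treated KKU-100 arrays.

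Higher in HuCCT1 were ATG2A, a lipid transfer protein, at -0.94 in KKU-100 minus HuCCT1 (standard error 0.12, limma adjusted p 0.00157), the protease ATG4A at -0.60, the E1-like enzyme ATG7 at -0.43 and the receptor TAX1BP1 at -0.30. HuCCT1 signals of ATG2A were 572, 537 and 510 against 296, 285 and 264 in KKU-100, and those of ATG9A were 148, 141 and 136 against 287, 239 and 246. Within each line these genes varied little with treatment, and the lines did not overlap. In the same order ATG4A read 352, 253 and 302 against 190.4, 186 and 221, ATG7 read 228, 198 and 216 against 163, 159 and 155, and TAX1BP1 read 2880.2, 3141 and 2728 against 2517, 2387 and 2215. GABARAPL1, at -0.93 with a limma adjusted p of 0.0604, was not called. The HuCCT1-higher calls depended on single arrays: 9 members were called without either solvent array and 1 without any of the other 4. The calls over all 12833 genes moved the same way. They were 3371 with all arrays, 3537 and 3543 without a solvent array, and 2392 to 2603 without another array.

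**Figure D4:**
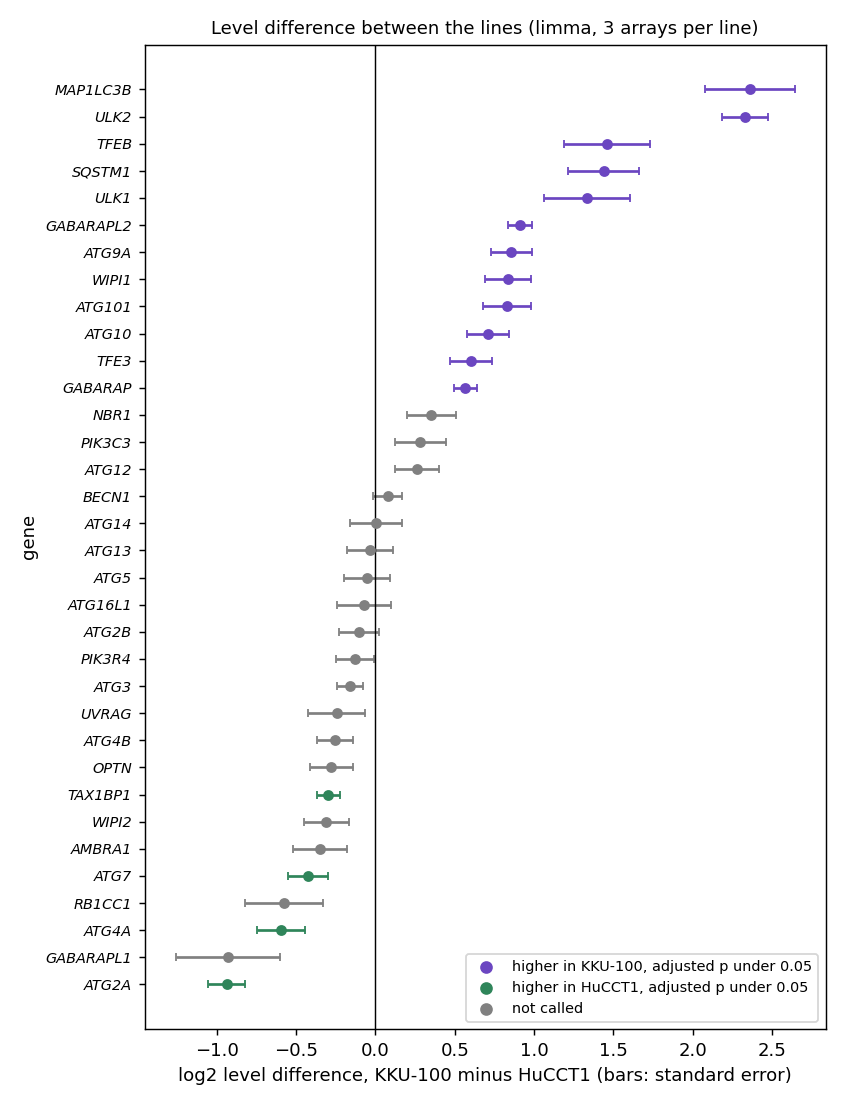
Log2 level difference KKU-100 minus HuCCT1 (x axis) of the 34 genes (y axis) from limma over 3 arrays per line, with standard errors as bars. The 12 genes in violet are higher in KKU-100 and the 4 in green higher in HuCCT1 at an adjusted p under 0.05, with MAP1LC3B farthest to the right at 2.36. ULK2, also far to the right, was below the level filter on the HuCCT1 arrays.

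Other genes of the pathway were counted from lists. Of 32 further autophagy genes, 27 passed the filter in each line. In HuCCT1 0 were called at the low dose, against 3.68% of all genes higher and 3.32% lower. The high dose had 4 higher and 1 lower, against 8.23% and 6.44%, which were RETREG1 (an ER-phagy receptor) at 1.56, NRBF2 (a subunit of the PI3-kinase complex) at 0.75, ATG4C at 0.69, ATG16L2 at 0.68 and VMP1 (an ER membrane protein of autophagosome formation) at -1.23. In KKU-100 0 were higher and 2 were lower at each dose: NRBF2 at -1.04 at the low dose, BNIP3L (a mitophagy receptor) at -0.67 at the high dose, and WDFY3, a scaffold for aggregate clearance, at -0.67 and -0.63. Of all genes in KKU-100, 9.75% were higher and 7.32% lower with the low dose, 9.44% and 4.86% with the high. The median signal over the WDFY3 probe sets gave -0.18 and -0.30, which ends both calls. Apart from WDFY3 these were named after their values were seen. NRBF2 thus lay above solvent at the HuCCT1 high dose and below it at the KKU-100 low dose.

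Lysosomal genes, many of which are TFEB targets, were counted in the same way. Of 30 listed, 26 were on the array with a probe set of their own, and 26 passed in HuCCT1 and 25 in KKU-100. In HuCCT1 0 were called at the low dose, and NEU1 at 0.64 and TPP1 at 0.62 were higher at the high dose, against 8.23% of all genes, with a list median of 0.18 and 0.15 beside 0.02 for all genes. In KKU-100 0 lysosomal genes were higher at either dose, against 9.75% and 9.44% of all genes. ATP6V1B2, a proton pump subunit, was lower at the low dose at -0.79, against 7.32%. The list medians were -0.04 and -0.01 beside 0.06 for all genes. Whether the TFEB difference bore on these genes was not tested. The 3 lysosomal genes were named after their values were seen.

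Among 33 regulators around mTORC1, AMPK and the TFEB family, 29 passed the filter in HuCCT1 and 30 in KKU-100. In HuCCT1 the low dose had 3 higher, against 3.68% of all genes, and the high dose 7, against 8.23%, with 0 lower at either, against 3.32% and 6.44%. SESN2, which encodes the leucine sensor and mTORC1 inhibitor Sestrin 2, had HuCCT1 signals of 96.0, 210.1 and 631, log2 fold changes of 1.13 and 2.72, and KKU-100 signals of 751, 204 and 852, differences of -1.88 and 0.18. DDIT4, which encodes the mTORC1 inhibitor REDD1, read 2929, 5973 and 6525 in HuCCT1 (1.03 and 1.16) and 2779, 2709 and 3349 in KKU-100 (-0.04 and 0.27). Both inhibitors were thus above solvent at each dose in HuCCT1 and at neither dose past the cutoff upward in KKU-100.

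Of these regulators KKU-100 had 4 higher and 4 lower with the low dose, and 3 higher and 1 lower with the high dose. The shares of all genes were 9.75%, 7.32%, 9.44% and 4.86% in that order. RRAGD, which encodes a Rag GTPase that recruits mTORC1 to the lysosome, was higher at 0.72 and 0.94, and MITF, a relative of TFEB, at 0.60 and 0.86. MITF signals were 177, 268 and 319.8 in KKU-100 and 316, 378 and 371 in HuCCT1. Its low-dose call was lost with quantile normalization, at 0.58, and with the median signal over its probe sets, at 0.46. TSC1, a subunit of the TSC complex that inhibits mTORC1, was lower at -0.78 and -0.65, with KKU-100 signals of 460.1, 267 and 294, and is named after its values were seen. In limma over both lines 0 genes of the 3 lists passed an adjusted p of 0.05 at either dose. At an unadjusted p under 0.05 the high dose had 5, 3 and 8 genes higher and 1, 1 and 0 lower among the further autophagy, lysosomal and regulator genes, with 10% and 4.9% of all genes for the respective directions, and the low dose had 2, 1 and 2 higher and 0, 0 and 1 lower, with 6.14% and 5.07%.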

How the data were processed

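RNA from 6 cultures, 1 per line and treatment, was measured on Affymetrix arrays. Per probe set the authors deposited linear signal intensities, and the submitters' processing notes name MAS5 without a version. The methods of the study name log2 normalization in GeneSpring, and the scaling between arrays is not given in the sources used here. Groups were taken from the labels. After removal of 62 control probe sets, signals were log2 transformed with no other scaling. The array annotation gave 1 symbol for 41091 probe sets, several for 1801 and none for 11721.

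Signals were compared as described with the results. Tests used limma 3.58.1 in R 4.3.3 (lmFit, eBayes with a trend, 2 residual and 3.42 prior degrees of freedom, Benjamini-Hochberg adjusted p under 0.05), tested on simulated data first. Other steps used Python 3.11.15, numpy 2.4.6, pandas 2.3.3, scipy 1.17.1 and matplotlib 3.10.9. The number of arrays limits the precision.

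Signals on all arrays are given for members past 1.5-fold against solvent on their representative probe set, for members limma called and for the ATG8 family, with at most 16 of the first kind. Of the further lists, up to 4 genes are named, past 1.5-fold in the same direction at each of the doses in a line. The members and lists were chosen with earlier results of these data known. Alternatives were a 2-fold cutoff, quantile normalization, median centring, a floor on signals (percentile 20), a level filter at percentile 60 or none, omission of probe sets marked as matching several transcripts, the median signal over a gene's probe sets, the median of their fold changes (added after seeing the data), all probe sets in the fit, eBayes robust or without a trend, the fit without each array, and the methods' t-test.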

Additional observations from a re-analysis of the deposited data

Results flagged for a closer look

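A probe set annotated to both GABARAPL3 and GABARAPL1, which entered no comparison because it carries 2 symbols, had signals of 405, 959.7 and 1055 in HuCCT1 and of 542, 259.9 and 436 in KKU-100 on the solvent, low-dose and high-dose arrays. It stood above the HuCCT1 solvent array by 1.24 (low dose) and 1.38 (high dose) on the log2 scale. The KKU-100 differences were -1.06 and -0.32. Its signal cannot be assigned to either gene.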

How the results depend on the processing

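With 1 array per condition, leaving out an array gives no value for a comparison within a line, nor for the interaction without a solvent array. No paired analysis was possible because each group holds 1 array, so that replicate numbers pair nothing, and the pairing by line is in the limma fit as a block and in the methods' t-test as the pair. Quantile normalization took the members lower at the HuCCT1 high dose from 1 to 0, with PIK3C3 at -0.57. Without probe sets marked as matching several transcripts, members lower at the HuCCT1 low dose went from 1 to 0, at the high dose 3 were higher and 2 lower, between the HuCCT1 doses 1 was higher, and in KKU-100 2 were higher at the high dose and 1 between the doses. With the median signal over the probe sets of a gene, 2 members were higher and 0 lower at the HuCCT1 low dose, 1 was higher between the HuCCT1 doses, 1 was higher at the KKU-100 low dose, 2 at its high dose and 1 between its doses, and PIK3C3 at the HuCCT1 high dose turned from -0.59 to 0.0637, as its 6 dimmer probe sets then counted. With the median of the fold changes over a gene's probe sets above the filter, chosen after seeing the data, 2 members were higher at the HuCCT1 low dose and 2 at the KKU-100 high dose, 1 was higher between the KKU-100 doses, the member ATG12 kept its call at 0.66, and those of the members SQSTM1 at 0.21, ATG13 at -0.43 and AMBRA1 at -0.53 were lost. At a 2-fold cutoff, 0 members were lower at the HuCCT1 low dose, 2 were higher and 0 lower at its high dose, 1 was higher between its doses, 1 was higher and 2 lower at the KKU-100 low dose, and 0 were higher between its doses. In limma, fitting every probe set called 22 of the 67 tested probe sets of members higher in KKU-100 and 8 higher in HuCCT1. Of all 23326 probe sets in that fit, 6084 were higher in KKU-100 and 6042 in HuCCT1. Leaving out each array gave 0 to 1 members higher and 0 to 5 lower at the low dose, 0 to 1 higher and 0 to 4 lower at the high dose, and 1 to 9 higher in HuCCT1. Calls higher in HuCCT1 ranged from 2392 to 3543 over all 12833 genes in the same fits. The cause of these differences was not tested. Members were called against solvent only in fits that left out a solvent array, and those fits hold no spread between solvent arrays.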
